A study of Mus musculus with 202 samples.

Results

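E-cadherin-negative and E-cadherin-positive cells of a mouse pancreatic cancer line were compared among single cells that devoted a similar part of their transcripts to mitochondrial genes. Cells were chosen by their mitochondrial share, a measured value: a cell was kept when the 13 genes whose symbols start with mt- made up 10% to 40% of its TPM, the abundance of a transcript per length, scaled to a fixed total per cell. The window held 107 of the 197 cells, namely 38 of the 97 Ecad- cells and 69 of the 100 Ecad+ cells. The kept cells were then rescaled to a common total without the mt- genes, so that the mitochondrial share itself no longer entered any level.

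Both fractions came from 1 pancreatic ductal adenocarcinoma line of KPC type, male, taken from a metastasis in the liver. Ecad- cells were those sorted as negative for E-cadherin after antibody staining, and Ecad+ cells were those sorted as positive. Everything else in the labels was shared: growth in DMEM with 10% FBS, passages 4 to 6, trypsin before staining, capture on the Fluidigm C1 microfluidic device, SMARTer amplification and Nextera XT libraries. KPC names a genetically engineered mouse model of pancreatic cancer, and its alleles and Cre driver were not given in the sources used here. No culture or animal was named, so each fraction counts as 1 sample, cells are not replicates, and the differences have no replicate check and carry no p-value.

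Mitochondrial transcripts are made inside the organelle from its own small genome and encode core subunits of the respiratory chain and of ATP synthase. Their share of a cell's RNA is often read in single-cell work as a mark of cell state or of RNA lost from the cytoplasm, and it shifts the level of every other gene when values are given relative to a fixed total. E-cadherin joins epithelial cells to each other, and carcinoma cells that lose it at the surface are studied for dissemination. The integrated stress response, in which phosphorylated eIF2 slows translation while Atf4 and its target Ddit3 (CHOP) are made, is 1 of the programmes that cells under endoplasmic reticulum stress switch on, and the title of the study names that kind of stress.

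The share that chose the cells differed in its spread between the fractions. Of the Ecad- cells outside the window, 40 lay under 1%, 9 lay from 1% to below 10%, and 10 lay above 40%. Of the Ecad+ cells outside it, 1 lay under 1%, 2 lay from 1% to below 10%, and 28 lay above 40%. Inside the window, the Ecad- cells ran from 10.2% over a median of 23.9% to 39.4%, and the Ecad+ cells from 10.7% over a median of 25.2% to 39.6%. At the lower bound the nearest cells were at 8.78% outside and 10.2% inside for Ecad-, and at 7.07% outside and 10.7% inside for Ecad+. At the upper bound they were at 39.4% inside and 40.5% outside for Ecad-, and at 39.6% inside and 40.9% outside for Ecad+. These shares are a description of the choice and were not tested.

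**Figure D1:**
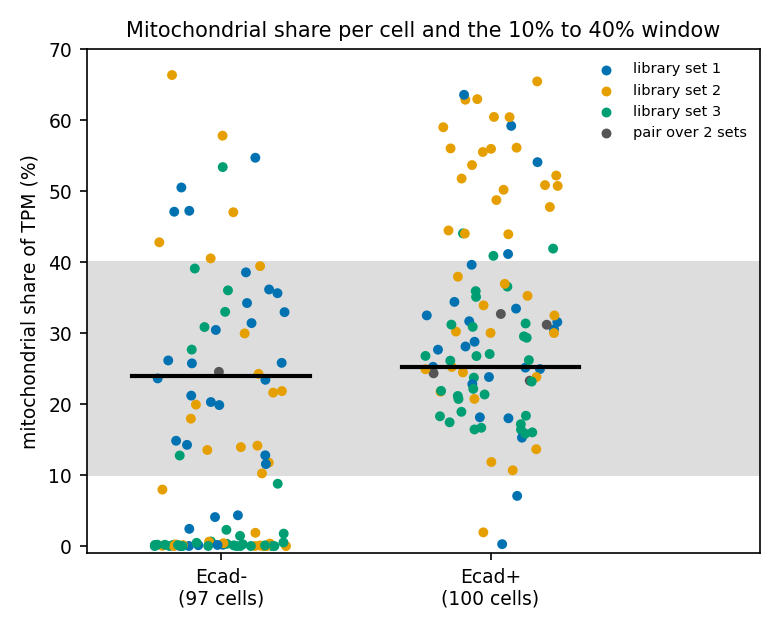
Mitochondrial share of TPM (y axis, percent) for each of the 97 Ecad- and 100 Ecad+ cells, coloured by library set, with the 10% to 40% window in grey and a bar at the median of the kept cells. The 40 Ecad- cells under 1% and the 28 Ecad+ cells above 40% fall outside, and the kept cells have medians of 23.9% in Ecad- and 25.2% in Ecad+.

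The library names carry 1 of 3 suffixes, treated here as library sets 1, 2 and 3, whose meaning was not stated. The kept Ecad- libraries numbered 20, 13 and 6 in sets 1, 2 and 3, and the kept Ecad+ libraries 22, 17 and 34, so set 3 held the most Ecad+ libraries and the fewest Ecad- libraries. Each ratio was therefore computed pooled and within each set. The window did not match the share closely within sets. The median share in Ecad- and Ecad+ libraries was 24.7% and 28.5% in set 1, 19.9% and 25.2% in set 2, and 31.9% and 22.3% in set 3. A ratio given alone, with no setting stated, is the pooled value and can differ between sets. The names also carry a number that is higher in every Ecad- library than in every Ecad+ library, and any effect tied to it cannot be told apart from the sort. Of the 202 libraries, 5 pairs correlated at 0.984 or above across all genes, against 0.939 for the next pair, and each pair was averaged to 1 cell. All 5 pairs lay inside the window. Each Ecad+ pair joined a library of set 3 with a library of set 1, and the Ecad- pair joined set 2 with set 1. Ratios within sets use single libraries, so these cells count in both sets and the sets are not fully separate. The kept cells still differed in complexity: a median of 8800.3 genes was above 0 in Ecad- cells and of 10263 in Ecad+ cells.

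Markers of other cell types were uneven among the kept cells, and their part in the results was not tested. Of 10 immune markers 4 were listed at 0 in every kept cell, Ptprc among them. The immune sum ran from 0 over a median of 56.2 to 420 TPM in Ecad- cells and from 0.509 over 83.0 to 479 TPM in Ecad+ cells. Cd14 was above 0 in 33 of 38 Ecad- and 68 of 69 Ecad+ cells. The highest fibroblast sums were 4.41 TPM in Ecad- cells, against 6.86 TPM in Ecad+ cells, with 5 of 9 markers at 0. The highest endothelial sums were 9.32 TPM in Ecad- cells, against 1.43 TPM in Ecad+ cells, with 2 of 7 markers at 0. Hepatocyte markers had median sums of 13.8 TPM in Ecad- cells, against 28.1 TPM in Ecad+ cells, with 3 of 9 markers at 0. Their highest sums were 912 TPM in Ecad- cells, against 561 TPM in Ecad+ cells. Apob and Ttr alone reached 912 TPM in Ecad- cells, against 393 TPM in Ecad+ cells, so other hepatocyte markers added to the Ecad+ maximum. Acinar and endocrine markers had a median sum of 0 in both, with 8 of 11 at 0.

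Levels were compared for 7893 genes that averaged 5 TPM or more over the fractions and were detected in 10% or more of kept cells. Their median log2 ratio of Ecad- over Ecad+ was 0.02. Ratios use mean TPM + 1 in each fraction, which understates the change of low genes. A gene was called when it differed at least 2-fold in the pooled cells and had the same sign in all 3 library sets. By this rule 225 genes (2.85%) rose and 312 genes (3.95%) fell in Ecad- cells. These shares are the background for every count of called list genes below. The same rule over all 197 cells gave 544 of 8011 genes (6.79%) higher and 499 (6.23%) lower. Without the demand on library sets, 343 kept-cell genes (4.35%) were at least 2-fold higher and 349 (4.42%) at least 2-fold lower. Without library set 1 the counts were 450 and 582. Calls followed the kind of average: with the mean of log2 values per cell, the all-gene median moved to -0.45 and the calls to 42 higher and 1471 lower, so that 2.78% of calls were higher, against 41.9% with mean TPM. For this reason each list median is stated as its distance to the median of all genes.

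Genes of the integrated stress response were mostly higher in Ecad- cells at matched share in the pooled cells and in library sets 1 and 2, but not in set 3. Of 26 measured genes out of a list of 31, 25 lay above the all-gene median, 6 rose by the call rule and none fell, against a background of 2.85% rising. The list median stood 1.13 above the all-gene median on the log2 scale, beside 1.11 when all 197 cells were used, and 0.73 above it with a pseudocount of 10. The 6 genes were Ddit3, Nupr1, Slc3a2, Pck2, Ppp1r15a and Atf4.

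The promoters of Nupr1 and Asns are shown because both carry the C/EBP-ATF element, the composite site that ATF4 binds with a C/EBP partner, while Nupr1 was called and Asns was not. The element was searched as TGATGNAA on both strands in 300 bases around each gene's start in the RefSeq table (250 bases before and 50 after), build GRCm38.p6. It was present at 8 of the 22 list genes with an entry (36.4%), against 4.51% of 27025 gene symbols. The windows printed are chr7:126625421-126625720 on the minus strand for Nupr1 and chr6:7693160-7693459 on the minus strand for Asns, and the capitals mark the match inside each.
Nupr1: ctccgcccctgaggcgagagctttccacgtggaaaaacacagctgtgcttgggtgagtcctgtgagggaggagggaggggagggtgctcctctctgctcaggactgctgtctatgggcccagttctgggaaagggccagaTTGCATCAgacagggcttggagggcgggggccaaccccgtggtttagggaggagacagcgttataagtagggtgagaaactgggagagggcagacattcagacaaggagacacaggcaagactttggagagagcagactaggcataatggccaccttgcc
Asns: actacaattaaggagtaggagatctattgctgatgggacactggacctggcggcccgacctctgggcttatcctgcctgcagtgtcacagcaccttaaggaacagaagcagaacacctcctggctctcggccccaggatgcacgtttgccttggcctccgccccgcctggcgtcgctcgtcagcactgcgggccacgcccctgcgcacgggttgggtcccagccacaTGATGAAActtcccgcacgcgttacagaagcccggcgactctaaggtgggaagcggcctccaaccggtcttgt
In Nupr1 the match begins at -110 from the gene start and lies in reverse orientation, while in Asns it begins at -23 and lies forward. The other carriers were Atf3, Chac1, Pck2, Slc7a11, Trib3 and Vldlr. A match describes these letters in this window and is not a binding site.

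Ddit3 encodes CHOP, a transcription factor of the stress response that can promote cell death (chr10:127290774-127296288, plus strand). It ran from 0 over a median of 99.8 to 1368 TPM in Ecad- cells, and from 0 over a median of 10.5 to 714 TPM in Ecad+ cells. The fractions overlapped, but 30 of 38 Ecad- cells lay above the Ecad+ median and 7 lay above the highest Ecad+ cell. Its mean was 275 ± 380 TPM in Ecad- cells, against 29.6 ± 88.4 TPM in Ecad+ cells (SD over 38 and 69 cells), and the log2 ratio was 3.17. Within library sets 1, 2 and 3 the ratio was 3.83, 3.84 and 0.60. Set 3 held the highest Ecad+ cell, at 714 TPM, and its medians were 87.8 TPM in Ecad- libraries, against 14.6 TPM in Ecad+ libraries. A value above 0 was seen in 81.6% of Ecad- cells (exact Clopper-Pearson 95% interval 65.7% to 92.3%) and in 87.0% of Ecad+ cells (76.7% to 93.9%). The share of cells with any Ddit3 was thus not higher in Ecad- cells. Such intervals take each cell as a separate draw and hold counting error alone.

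Atf4, the transcription factor whose translation is favoured when eIF2 is phosphorylated, ran from 0.099 over a median of 191 to 1076 TPM in Ecad- cells and from 1.14 over 93.1 to 639 TPM in Ecad+ cells. The ranges overlapped almost fully, with 27 of 38 Ecad- cells above the Ecad+ median. Its log2 ratio was 1.14 pooled and 1.07, 1.18 and 0.34 in sets 1, 2 and 3. Nupr1, a small stress-induced nuclear protein, had a median of 463 TPM and a highest value of 6370 TPM in Ecad- cells, against 111 and 1305 TPM in Ecad+ cells. Here 6 Ecad- cells stood above every Ecad+ cell. Its ratio of 1.95 varied little between sets, at 1.79, 2.46 and 1.72. Ppp1r15a (GADD34), which brings the phosphatase back to eIF2, averaged 113 ± 102 TPM in Ecad- cells, against 49.4 ± 53.4 TPM in Ecad+ cells, with ratios of 0.93, 1.50 and 1.13 in the 3 sets.

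Genes that make or carry amino acids behaved differently between library sets. Asns, asparagine synthetase, ran from 0 over a median of 332 to 2709 TPM in Ecad- cells and from 0 over 98.9 to 1134 TPM in Ecad+ cells. Although 8 Ecad- cells exceeded every Ecad+ cell and the pooled ratio was 1.63, the ratio was 1.32 and 1.38 in sets 1 and 2 and -1.75 in set 3, so the gene was not called. Psph, which completes serine synthesis, showed 1.85, 1.28 and -0.98. Trib3, a pseudokinase induced by ATF4, showed 1.96, 3.40 and -1.61. Slc7a11, the cystine transporter, had ratios of 1.63, 2.39 and -0.11, and Chac1, which degrades glutathione, of 0.88, 2.67 and -2.04. Slc3a2, the heavy chain shared by several amino acid transporters, kept its sign with 1.63, 0.85 and 0.16, and averaged 256 TPM in Ecad- cells, against 95.1 TPM in Ecad+ cells. Over the whole list the median was 0.93 and 1.02 above the all-gene median in sets 1 and 2 and 0.69 below it (-0.69) in set 3.

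Set 3 rests on 6 Ecad- libraries, and its fractions differed in share and complexity. The median share was 31.9% in its Ecad- libraries, against 22.3% in its Ecad+ libraries, with medians of 8299 and 10047.5 genes above 0. The part of either in the set 3 ratios was not tested. The Asns values of the 6 Ecad- libraries were 0, 3.30, 5.58, 46.1, 53.0 and 70.0 TPM, all under the Ecad+ median of 98.9 TPM over the 3 sets. Their Ddit3 values were 0, 0, 79.6, 96.0, 104 and 121 TPM, so 4 of the 6 lay above and 2 below the Ecad+ median of 10.5 TPM. Their Nupr1 values were 144, 232, 473, 507, 1043 and 2394 TPM, all above the Ecad+ median of 111 TPM. Trib3 was listed at 0 in all 6.

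The summed level of the 26 stress response genes ran from 895 over a median of 3190 to 14057 TPM in Ecad- cells and from 416 over 1556 to 6902 TPM in Ecad+ cells. In all, 29 of 38 Ecad- cells were above the Ecad+ median and 6 were above every Ecad+ cell. The sum was weakly related to the mitochondrial share inside the window, with Spearman's rho of 0.07 over 38 Ecad- cells and 0.01 over 69 Ecad+ cells, as a description of cells that share libraries and depth. With the number of genes above 0 its rho was 0.17 over the Ecad- cells and 0.54 over the Ecad+ cells. The part of complexity in the result was not tested. Within narrower bands the list median was 0.77 above the all-gene median at a share of 10% to 20%, 0.77 at 20% to 30% and 1.42 at 30% to 40%. Atf3, which the same pathway can induce, went the other way, with 44.7 TPM in Ecad- cells, against 71.1 TPM in Ecad+ cells on average. Cytosolic aminoacyl-tRNA synthetases, which ATF4 also targets, stood 0.25 above the all-gene median with 14 of 20 members above it, and 1 of them, Sars, rose (log2 ratio 1.09). Their median was 0.38, -0.02 and -0.55 in sets 1, 2 and 3.

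**Figure D2:**
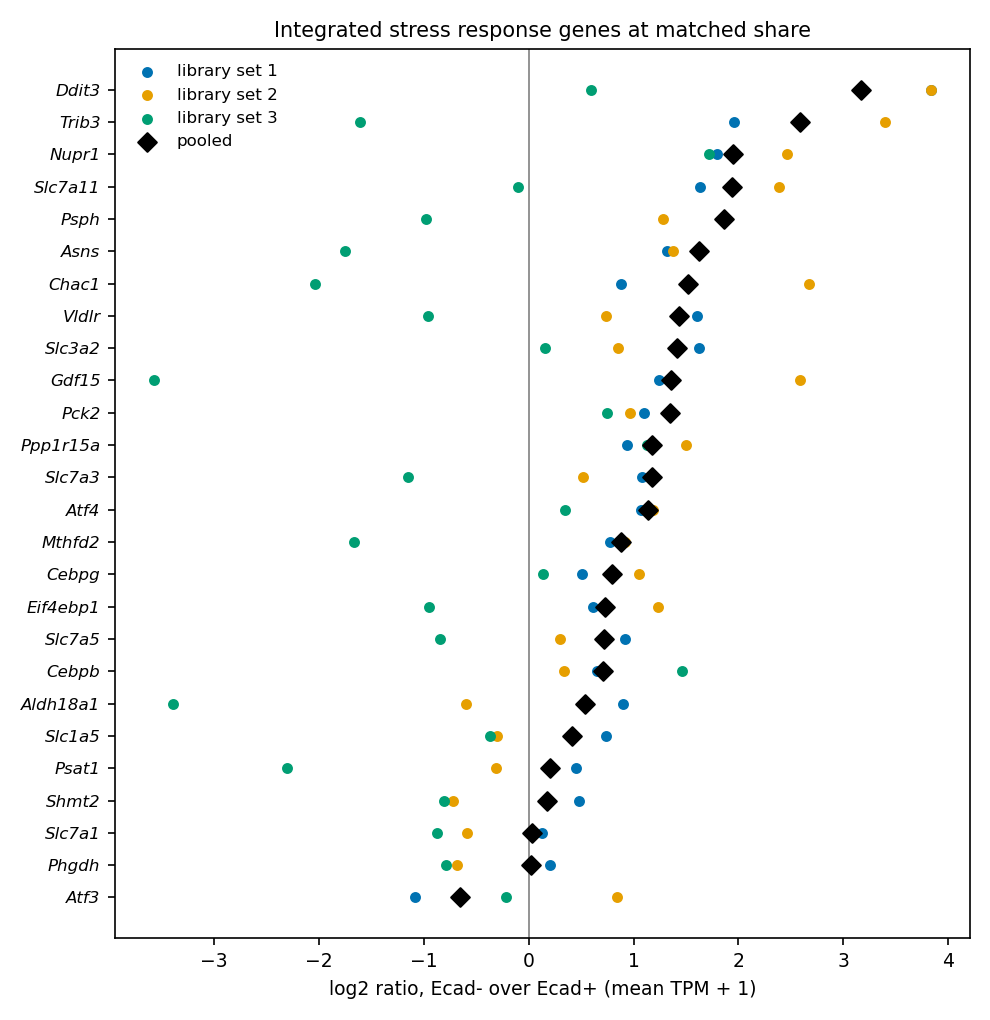
Log2 ratio of Ecad- over Ecad+ (x axis, mean TPM + 1) for the 26 measured integrated stress response genes (y axis) among kept cells, pooled as diamonds and within library sets 1 to 3 as points. Ddit3 and Nupr1 are above 0 in all sets, while Asns, Trib3 and Psph are above 0 in sets 1 and 2 and below 0 in set 3.

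Chaperones and other genes of the endoplasmic reticulum differed less. Of 30 measured genes from a list of 36, 21 lay above the all-gene median. By the call rule 3 rose and none fell, against a background of 2.85% rising. The list median was 0.26 above the all-gene median. The median was 0.33, 0.33 and -0.19 in library sets 1, 2 and 3, 0.12 without set 1 and 0.06 when the sets were weighted equally. Crebrf, a regulator linked to the unfolded protein response, rose with a log2 ratio of 1.56, Dnajb9 (ERdj4), a co-chaperone of BiP, rose with 1.35, and Txndc11, a thioredoxin-domain protein of the endoplasmic reticulum, rose with 1.01. Hspa5, which encodes BiP, the main chaperone of the compartment, had a median of 415 TPM in Ecad- cells, against 240 TPM in Ecad+ cells with overlapping ranges of 38.8 to 4927 TPM and 63.3 to 1473 TPM. Its ratio was 1.00 pooled and 0.74, 1.16 and -0.45 in the 3 sets, so it was not called. The protein disulfide isomerase Pdia3 was near parity, at 463 TPM in Ecad- cells, against 513 TPM in Ecad+ cells.

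The endoplasmic reticulum stress element, the site that ATF6 and XBP1 can bind with NF-Y, is shown for Hspa5 because it sets this arm apart from the C/EBP-ATF element at Nupr1 and Asns. It was searched as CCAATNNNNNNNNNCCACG on both strands and occurred at 8 of 26 list genes with an entry (30.8%), against 0.137% of all symbols. The window printed is chr2:34771840-34772139 on the plus strand, and the match inside it, in capitals, begins at -65 from the gene start.
Hspa5: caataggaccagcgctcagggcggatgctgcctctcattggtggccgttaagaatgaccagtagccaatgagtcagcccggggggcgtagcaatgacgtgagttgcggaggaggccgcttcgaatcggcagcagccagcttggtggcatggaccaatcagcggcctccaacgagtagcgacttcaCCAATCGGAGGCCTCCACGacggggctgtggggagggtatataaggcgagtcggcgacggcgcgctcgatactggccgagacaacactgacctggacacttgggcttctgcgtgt
The other carriers were Calr, Canx, Creld2, Dnajc3, Hsp90b1, Pdia6 and Syvn1, none of which was called. Their log2 ratios ran from -0.19 for Calr to 0.87 for Creld2.

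The autophagy and lysosome list also had a higher median in Ecad- cells at matched share, in every library set, though smaller than over all cells. Of 32 measured genes from a list of 36, 27 lay above the all-gene median. By the call rule 5 rose and none fell, against a background of 2.85% rising. In each library set 17 of the 32 were higher and 4 lower, against 17.1% and 24.5% of all genes. The list median stood 0.38 above the all-gene median, with 0.35, 0.59 and 0.62 in sets 1, 2 and 3, beside 0.93 over all 197 cells. These comparisons share the kept cells, and the difference between them was not tested. Spearman's rho of the summed level with the number of genes above 0 was 0.02 over Ecad- and -0.34 over Ecad+ kept cells.

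Sqstm1 (p62), the receptor that carries ubiquitinated cargo into autophagosomes (chr11:50199366-50210827, minus strand), ran from 142 over a median of 439 to 4040 TPM in Ecad- cells and from 16.5 over 158 to 1050 TPM in Ecad+ cells. The ranges overlapped, with 36 of 38 Ecad- cells above the Ecad+ median. Its mean was 740 ± 824 TPM in Ecad- cells, against 239 ± 207 TPM in Ecad+ cells, and the log2 ratio was 1.62 with 1.67, 1.65 and 0.76 in the 3 sets. Of the listed subunits of the proton pump of the lysosome, only Atp6v0b and Atp6v1h rose by the call rule. Atp6v0b had a ratio of 1.42, or 0.59 without library set 2, and Atp6v1h of 1.22. Atp6v0b had medians of 502 TPM in Ecad- cells, against 299 TPM in Ecad+ cells, with highest values of 12236 and 946 TPM. Hexa and Gla, a hexosaminidase and a galactosidase of the lysosome, rose with 1.96 and 1.08, and Hexa was above 0 in only 18 of 38 Ecad- and 32 of 69 Ecad+ cells. The ratio of Hexa was 0.33, 2.59 and 3.11 in sets 1, 2 and 3. Map1lc3b, the autophagosome protein LC3B, was at 144 TPM in Ecad- cells, against 141 TPM in Ecad+ cells, and Lamp1, a lysosomal membrane glycoprotein, was lower with a ratio of -0.41. The 40 Ecad- cells under 1% mitochondrial share, which the window leaves out, had higher means for several of these genes, at 1490.5 TPM for Sqstm1, 583 TPM for Map1lc3b and 708 TPM for Lamp1.

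The sort marker itself differed by less than 2-fold at matched share. Cdh1, the E-cadherin gene (chr8:106603351-106670246, plus strand), ran from 0 over a median of 24.2 to 64.9 TPM in Ecad- cells and from 5.21 over 46.1 to 171 TPM in Ecad+ cells. The fractions overlapped widely: 12 of 38 Ecad- cells lay above the Ecad+ median, and 35 of 38 Ecad- cells had a value above 0. The means were 26.9 ± 22.1 TPM in Ecad- cells, against 51.1 ± 28.0 TPM in Ecad+ cells, and the log2 ratio was -0.90, with -0.53, -1.53 and -0.50 in the 3 sets, beside -1.49 over all cells. The label of the Ecad- fraction refers to surface protein, so Cdh1 RNA is only an indirect check of the sort.

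Other epithelial genes were lower to varying degrees. Of 15 measured genes from a list of 22, 13 lay below the all-gene median, none rose and 2 fell, against a background of 3.95% falling. The list median was -0.36 relative to the all-gene median, beside -1.001 over all cells, and it ranged from -0.87 with a floor of 50 TPM to -0.19 with cells matched 1 to 1 on share. Without library set 3 it was -0.59. The 2 that fell were Krt7, a simple-epithelium keratin of ducts, and Cldn7, a tight junction claudin. Krt7 had a median of 402 TPM in Ecad- cells, against 847 TPM in Ecad+ cells, and 33 of 38 Ecad- cells lay under the Ecad+ median. Its ratio was -1.41 with -0.98, -2.21 and -2.17 in sets 1, 2 and 3. Cldn7 had a median of 12.7 TPM in Ecad- cells, against 142 TPM in Ecad+ cells, and it was above 0 in 23 of 38 Ecad- and 64 of 69 Ecad+ cells. Its ratio was -1.71, with -2.45, -1.09 and -0.62 in the sets.

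Krt19, the ductal keratin, missed the call narrowly with 753 TPM in Ecad- cells, against 1480 TPM in Ecad+ cells and a ratio of -0.97. Krt8 and Krt18, which pair into filaments, had ratios of -0.73 and -0.34, and Krt18 averaged 2159 TPM in Ecad- cells, against 2725 TPM in Ecad+ cells. Epcam had a ratio of 0.31 that ran from -1.42 in set 1 to 2.24 in set 3, with a median of 0 in both fractions. The summed epithelial level was under the Ecad+ median in 32 of 38 Ecad- cells, with medians of 3512 TPM in Ecad- cells, against 6787 TPM in Ecad+ cells.

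Mesenchymal genes did not stand higher in Ecad- cells. Of 9 measured genes out of 20, 3 stood over the median of all genes and 6 under it, none was called, and the list median was -0.29. Vim, the intermediate filament vimentin, averaged 461 ± 316 TPM in Ecad- cells, against 709 ± 468 TPM in Ecad+ cells, a ratio of -0.62 that was below 0 in each set. Snai2, a transcription factor that represses Cdh1, averaged 12.7 TPM in Ecad- cells, against 4.16 TPM in Ecad+ cells, with a median of 0 in both. Its ratio was 1.41 pooled and 1.11, 0.87 and -1.44 in the 3 sets. Zeb1, another such repressor, averaged 4.80 TPM in Ecad- cells, against 6.62 TPM in Ecad+ cells.

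**Figure D3:**
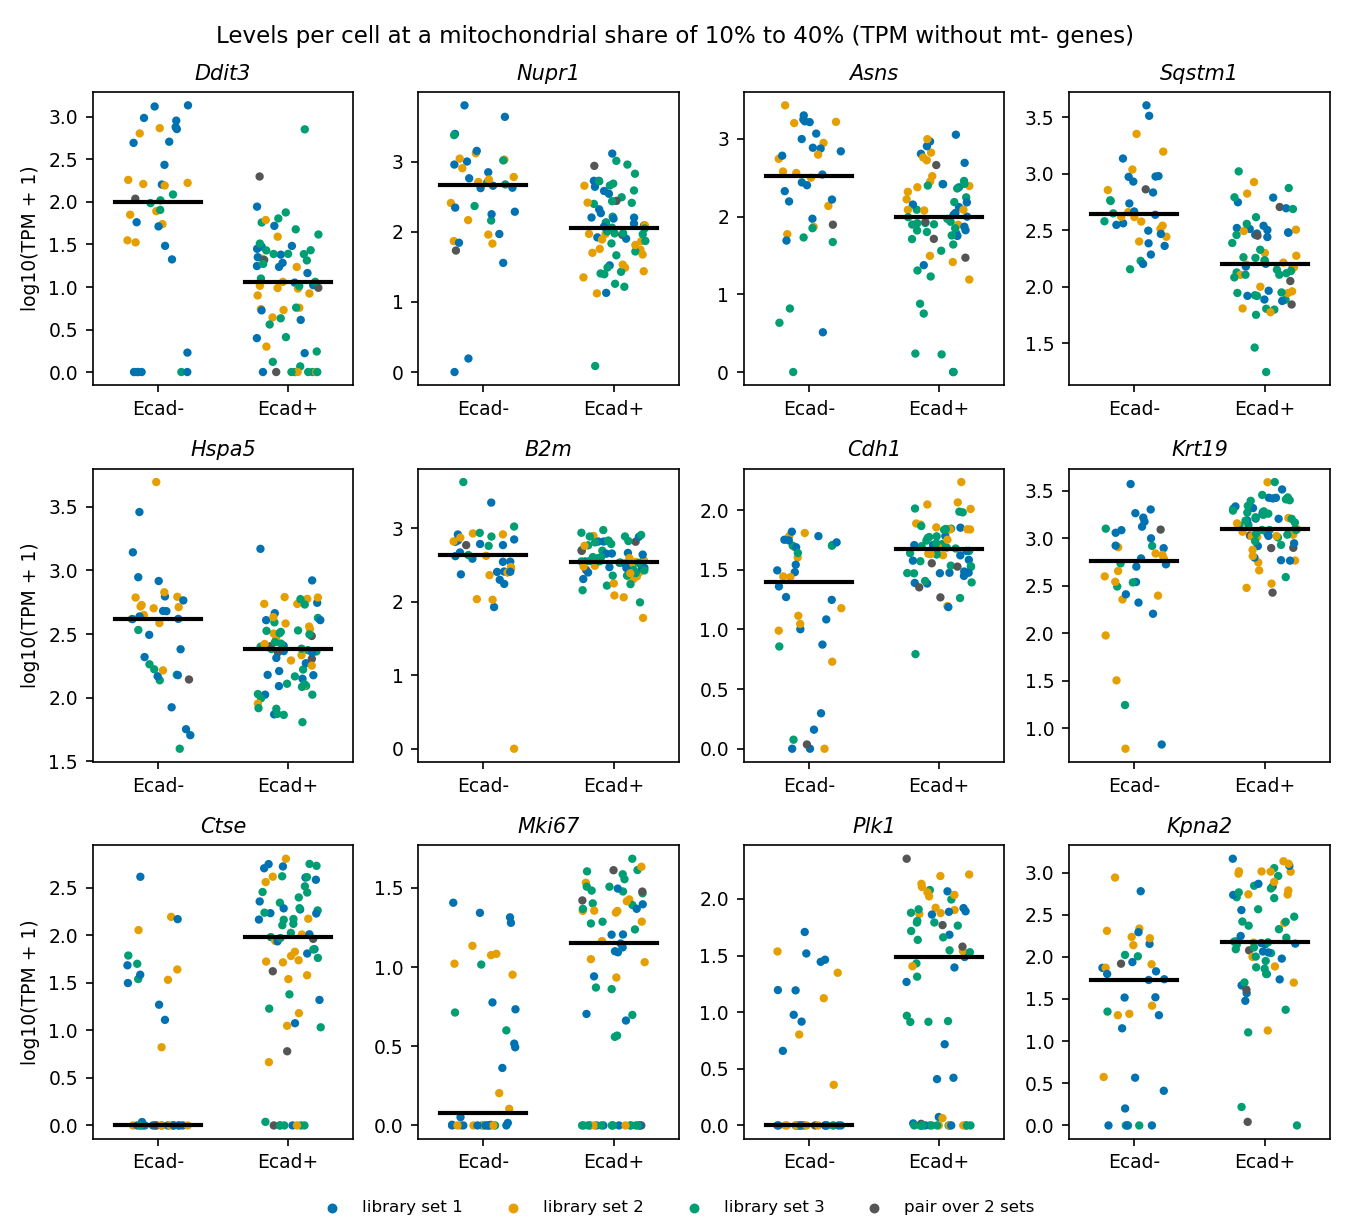
Level per kept cell on a log10(TPM + 1) axis for 12 genes in 38 Ecad- and 69 Ecad+ cells, coloured by library set, with a bar at the median. Ddit3, Nupr1, Asns and Sqstm1 have higher medians in Ecad- cells, while Cdh1, Krt19, Ctse, Mki67, Plk1 and Kpna2 have lower ones, and the fractions overlap in every panel.

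Proliferation genes were lower in Ecad- cells. Of 50 G2/M genes, all measured, 48 lay below the all-gene median. By the call rule 27 fell and none rose, against a background of 3.95% falling. In each library set 46 of the 50 were below 0, against 24.5% of all genes. The list median stood at -1.08 from that of all genes, with -0.61, -1.77 and -2.16 in sets 1, 2 and 3, beside -1.39 over all cells. The summed level had a median of 1954 TPM in Ecad- cells, against 6578 TPM in Ecad+ cells, with 28 of 38 Ecad- cells under the Ecad+ median. The highest Ecad- cell reached 14673 TPM, and it was the only 1 above the upper quartile of the Ecad+ cells, 11349 TPM. Without library set 1 the list median was -1.73.

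Plk1, a mitotic kinase (chr7:122159439-122169873, plus strand), ran from 0 over a median of 0 to 50.1 TPM in Ecad- cells and from 0 over 29.7 to 226 TPM in Ecad+ cells. It was above 0 in 14 of 38 Ecad- and 51 of 69 Ecad+ cells. Its log2 ratio was -2.53, with -1.94, -3.51 and -5.22 in the sets. Aurkb, the kinase of the chromosomal passenger complex, averaged 11.3 TPM in Ecad- cells, against 79.0 TPM in Ecad+ cells. Ube2c, which works with the anaphase-promoting complex, had a median of 27.1 TPM in Ecad- cells, against 301 TPM in Ecad+ cells. Mki67, the Ki-67 antigen of cycling cells, averaged 4.42 ± 6.84 TPM in Ecad- cells, against 14.9 ± 13.7 TPM in Ecad+ cells and had a value in 60.5% (interval 43.4% to 76.0%) of the Ecad- cells, against 71.0% (58.8% to 81.3%) of the Ecad+ cells.

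The sequence at Plk1 is shown because many G2/M promoters carry the cell cycle homology region, TTTGAA, through which the DREAM complex acts. It was present on either strand at 31 of 42 G2/M genes with an entry (73.8%), against 20.2% of all symbols, a common motif that is short. The match is in capitals and begins at 30 bases after the gene start in the RefSeq table, within chr7:122159185-122159484 on the plus strand. That start differs slightly from the start of the Plk1 coordinates given above, which come from GENCODE.
Plk1: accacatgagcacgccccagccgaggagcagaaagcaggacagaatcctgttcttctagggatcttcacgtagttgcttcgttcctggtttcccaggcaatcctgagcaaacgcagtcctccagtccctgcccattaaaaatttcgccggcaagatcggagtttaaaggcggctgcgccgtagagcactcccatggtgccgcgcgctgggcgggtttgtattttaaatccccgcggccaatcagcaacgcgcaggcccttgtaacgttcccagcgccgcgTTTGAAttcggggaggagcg

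The G2/M difference moved with library complexity. Among the 17 Ecad- cells with 8575 to 10040 genes above 0 and the 43 Ecad+ cells with 8654 to 10465, the list median was -0.15 relative to the all-gene median. There Plk1 was at -1.48, Ube2c at -1.69 and Aurkb at -3.13, but these have the list's 3 largest ratios and do not stand for it. The range did not equalise complexity, with medians of 8955 genes in Ecad- and 10063 in Ecad+ cells, and it left 2 Ecad- libraries in set 3. The G2/M sum was higher in cells with more genes above 0, with Spearman's rho of 0.31 over the 38 Ecad- and 0.53 over the 69 Ecad+ kept cells, and the part of complexity in the result was not tested.

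G1/S genes were also lower in Ecad- cells. Of 30 measured genes from a list of 32, 29 lay below the all-gene median and 7 fell, against a background of 3.95% falling. The list median was -0.71 with -0.59, -0.56 and -0.60 in the 3 sets. The 7 were the cyclin Ccne2, the nucleotide enzymes Tk1 and Rrm2, the replication helicase subunits Mcm5 and Mcm6, the primase subunit Prim1 and the flap nuclease Fen1, with ratios from -1.30 for Ccne2 to -1.01 for Mcm6. Tk1 had a median of 16.6 TPM in Ecad- cells, against 154 TPM in Ecad+ cells, and 30 of 38 Ecad- cells lay under the Ecad+ median. Cell cycle inhibitors and p53 targets were mixed, with 8 of 15 above the all-gene median. Gadd45a and Trp53inp1, both stress- and p53-responsive, rose with 1.88 and 1.94. In sets 1, 2 and 3 Gadd45a was at 1.80, 1.86 and 1.10, and Trp53inp1 at 2.01, 2.29 and 0.30. Cdkn1a (p21), the inhibitor of cyclin-dependent kinases, averaged 80.5 TPM in Ecad- cells, against 58.9 TPM in Ecad+ cells with ratios of 1.00, 1.54 and -2.30 in the sets, beside a pooled 1.54 over all cells.

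Nuclear genes of the respiratory chain differed little at matched share. All 76 were measured, none was called, 52 lay above the all-gene median, and the list median was 0.06 above it, beside 0.12 over all cells. Within library sets 1, 2 and 3 the median was 0.11, 0.24 and 0.41, and 30 of the 76 genes were higher in each set, against 17.1% of all genes. The members ran from -0.65 for Atp5g2, a subunit of the ATP synthase ring, to 0.76 for Ndufb6, a complex I subunit. Ndufb6 had a median of 413 TPM in Ecad- cells, against 254 TPM in Ecad+ cells, with ratios of 0.63, 0.71 and 0.70 in the sets. With the mean of log2 values this list stood 0.38 above the all-gene median. Its summed level was lower in kept cells with more genes above 0, with Spearman's rho of -0.28 over Ecad- and -0.51 over Ecad+ cells. The part of complexity was not tested. Cytosolic ribosomal proteins (79 of 86 measured, median 0.01) and mitochondrial ribosomal proteins (75 measured, median -0.06) had no called member, though these families have many near-identical copies and their split between copies is uncertain. Factors that copy or process the mitochondrial genome gave a median of -0.08, with Tfam, which packages mitochondrial DNA, at 67.0 TPM in Ecad- cells, against 54.8 TPM in Ecad+ cells. Among mitochondrial chaperones and proteases Oma1, a protease of the inner membrane that relays mitochondrial stress, fell with -1.09, and the list median was -0.02.

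The make-up of the mitochondrial transcripts was close between the fractions of kept cells. mt-Atp8 held a median of 79.2% of mitochondrial TPM in Ecad- cells and 78.4% in Ecad+ cells. mt-Co2 held 3.32% in Ecad- and 2.88% in Ecad+ cells. mt-Co1 held 1.95% in Ecad- and 2.45% in Ecad+ cells, and mt-Cytb 1.28% in Ecad- and 1.64% in Ecad+ cells. The share that chose the cells was therefore mostly a share of mt-Atp8, one very short gene; selecting instead on a share of 5% to 20% without mt-Atp8 kept 34 Ecad- and 77 Ecad+ cells and gave 194 higher and 341 lower genes.

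**Figure D4:**
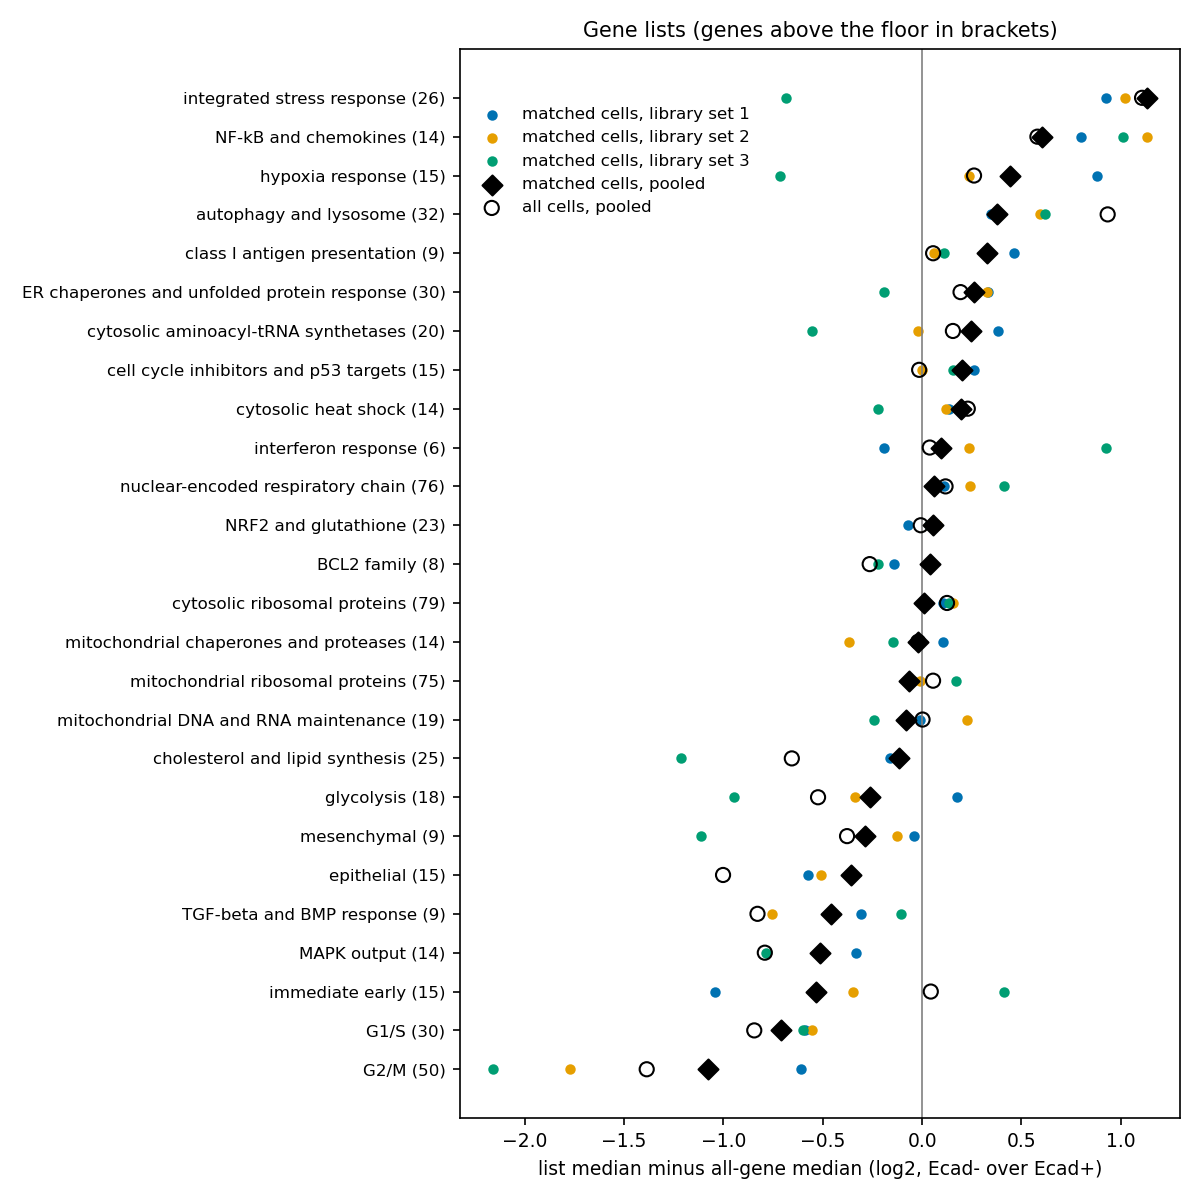
Median log2 ratio of each gene list minus the all-gene median (x axis) for kept cells pooled (diamonds) and within library sets 1 to 3 (points), and for all 197 cells (open circles). The integrated stress response stands at 1.13 pooled and at -0.69 in set 3, G2/M at -1.08, and the nuclear-encoded respiratory chain at 0.06.

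Inflammatory genes had a higher list median in Ecad- cells in each library set. Of 14 measured NF-kB targets and chemokines from a list of 20, 13 lay above the all-gene median. By the call rule 6 rose and none fell, against a background of 2.85% rising. In each set 8 of the 14 were higher and 1 lower, against 17.1% and 24.5% of all genes. The list median was 0.60 above the all-gene median with 0.80, 1.13 and 1.01 in the sets. Cxcl1, a neutrophil-attracting chemokine, ran from 0 over a median of 4.57 to 1321 TPM in Ecad- cells and from 0 over 1.05 to 210 TPM in Ecad+ cells. Only 5 Ecad- cells exceeded the highest Ecad+ cell, and equal numbers of Ecad- cells, 19 and 19, lay above and below the Ecad+ median. Ccl20 (log2 ratio 4.15) was above 0 in 9 of 38 Ecad- and 4 of 69 Ecad+ cells, and Cxcl10 (3.43) in 6 of 38 Ecad- and 5 of 69 Ecad+ cells, so each of these means rests on a few cells. Without library set 1 the ratio of Cxcl10 was 1.84. Nfkbia, the inhibitor that NF-kB itself induces, had a ratio of 1.47 but medians of 38.5 TPM in Ecad- cells, against 39.7 TPM in Ecad+ cells. Icam1, an adhesion molecule for leukocytes, and Cxcl16 rose with 1.34 and 1.31.

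Class I antigen presentation showed small and uneven differences. Of 9 measured genes out of 15, 5 lay above the all-gene median and 1, the peptide editor Tapbpl, rose with 1.22. B2m, the light chain of class I molecules, had medians of 425 TPM in Ecad- cells, against 346 TPM in Ecad+ cells, with a ratio of 0.59 and 0.29, 0.50 and 1.56 in the sets. H2-K1 and H2-D1, the heavy chains, had ratios of -0.36 and 0.68, and reads can be split between these similar genes in either direction. The list median was 0.33, but -0.0014 with no floor on low genes and 0.018 without library set 1. Spearman's rho of the summed class I level with the number of genes above 0 was 0.08 over Ecad- and -0.39 over Ecad+ kept cells. Interferon response genes, 6 of 27 measured, gave a median of 0.09, and Bst2 (tetherin) fell with -1.19, or -0.63 without library set 2 and -2.23 without set 1.

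Growth factor outputs were lower. The MAPK output list had 12 of 14 measured genes below the all-gene median and a median of -0.52. In it Ereg, an EGF-family ligand, fell with -1.13, and the phosphatase Dusp4 rose with 1.98, at 10.2 TPM in Ecad- cells, against 1.82 TPM in Ecad+ cells. Ccnd1 (cyclin D1) had medians of 76.0 TPM in Ecad- cells, against 263 TPM in Ecad+ cells with a ratio of -0.97 that was below 0 in each set. TGF-beta and BMP response genes had 8 of 9 below the all-gene median and none called; Id1 and Id3, inhibitors of differentiation, were at -0.98 and -0.83. Immediate early genes stood at -0.53, but at -1.04, -0.35 and 0.41 in sets 1, 2 and 3, and Fos, a subunit of AP-1, fell with -1.64, or -1.07 without set 1. Glycolysis (-0.26) and cholesterol synthesis (-0.11) were slightly below the all-gene median pooled and at -0.95 and -1.21 in set 3. In glycolysis 13 of 18 measured genes lay below that median. Aldoc (-1.42) and Pfkm (-1.15) fell and none rose, against a background of 3.95% falling. In cholesterol synthesis 15 of 25 lay below it, Acat2 fell with -1.06 and none rose. Hypoxia response genes stood at 0.44, with 9 of 15 above the all-gene median, 1 that rose and -0.71 in set 3. The riser was Vegfa, the endothelial growth factor, with 59.3 TPM in Ecad- cells, against 29.1 TPM in Ecad+ cells. Its medians were closer, at 27.8 TPM in Ecad- cells, against 20.9 TPM in Ecad+ cells. The highest Ecad- cell was at 592 TPM, and the ratio of 1.00 was 1.18, 1.13 and 0.18 in the sets.

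The remaining lists lay near the all-gene median or held few measured genes. Cytosolic heat shock genes were at 0.19, and the co-chaperone Dnajb1 fell with -1.09. NRF2 and glutathione genes were at 0.05, and Gsta4, a glutathione transferase, fell with -1.47, at 943 TPM in Ecad- cells, against 2616 TPM in Ecad+ cells. The BCL2 family was at 0.04. In it Bcl2l11 (BIM), which promotes apoptosis and is a known target of CHOP, rose with 1.78, or 0.92 without library set 3, and Bok fell with -1.15. The rise of Bcl2l11 was in the mean alone, with medians of 0.12 TPM in Ecad- cells, against 0.24 TPM in Ecad+ cells. It was above 0 in 26 of 38 Ecad- and 56 of 69 Ecad+ cells, and 21 of 38 Ecad- cells lay under the Ecad+ median. Bcl2l11 was at -0.042 among the 17 Ecad- and 43 Ecad+ cells in the same middle range of genes above 0. Of 19 nuclear long RNAs and snoRNA hosts 2 had a row, Gas5 and Snhg3, with ratios of 0.59 and 0.41, and neither was called.

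Ranked by their smallest ratio over the 3 sets, the genes that rose and stand in none of the lists were Arl5b, Ifrd1, Rnpc3, Kdm5a, Cds2, Unc13d and Aldh1a3. Arl5b, a small GTPase of vesicle transport, averaged 36.5 TPM in Ecad- cells, against 7.42 TPM in Ecad+ cells, a ratio of 2.16 with 2.02, 2.60 and 2.10 in the sets. Ifrd1, an interferon-related regulator of transcription, had medians of 263 TPM in Ecad- cells, against 145 TPM in Ecad+ cells, and 15 of 38 Ecad- cells stood above every Ecad+ cell, although 6 Ecad- cells were listed at 0. The ranking uses means, and medians can differ. In set 3 the Ifrd1 medians went the other way, at 65.6 TPM in Ecad- libraries, against 125 TPM in Ecad+ libraries. Its lowest ratio under the alternatives was 0.12. Kdm5a, a histone demethylase, was above the Ecad+ median in 33 of 38 Ecad- cells. Cds2 was above its Ecad+ median in only 20 of 38 Ecad- cells. Its set 1 medians were 5.40 TPM in Ecad- libraries, against 12.1 TPM in Ecad+ libraries. The vitamin A enzyme Aldh1a3 had a ratio of 1.11 and the splicing factor Rnpc3 of 1.44.

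By the same ranking the falls were in Ctse, Msln, Kpna2, Ripply3, Ivl, Efemp1, Fam64a and Fignl1 beside Aurkb and Plk1, which stand in the G2/M list. Absence from that list does not set a gene apart from the cell cycle, and whether these falls are separate from the G2/M difference was not tested. Ctse, cathepsin E, a protease of gastric and ductal precursor lesions, had medians of 0 in Ecad- and 94.7 TPM in Ecad+ cells, and was above 0 in 16 of 38 Ecad- and 61 of 69 Ecad+ cells. Its ratio was -2.30 with -2.32, -2.18 and -2.57 in the sets. Msln, mesothelin, a surface protein of many pancreatic cancers, had medians of 41.8 TPM in Ecad- cells, against 192 TPM in Ecad+ cells, with 34 of 38 Ecad- cells under the Ecad+ median and a ratio of -1.78. Kpna2, an importin that carries proteins into the nucleus, averaged 97.9 TPM in Ecad- cells, against 366 TPM in Ecad+ cells.

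**Figure D5:**
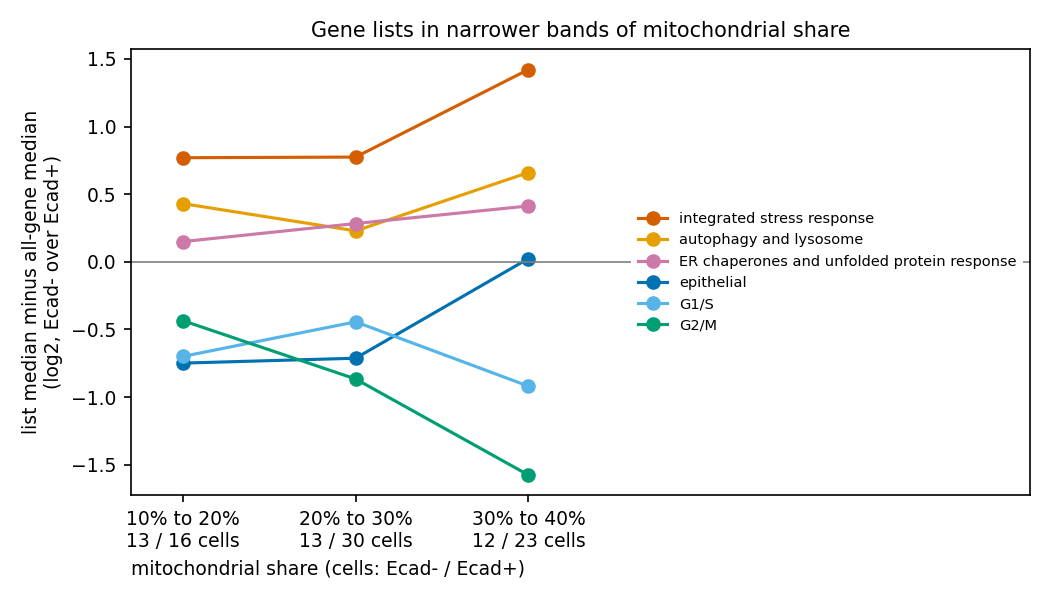
Median log2 ratio of 6 gene lists minus the all-gene median (y axis) in bands of mitochondrial share of 10% to 20%, 20% to 30% and 30% to 40% (x axis, with the number of Ecad- and Ecad+ cells). The integrated stress response is at 0.77, 0.77 and 1.42, and the epithelial list at -0.75, -0.71 and 0.02.

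Within the window the bands of share did not give equal values. The 3 bands held 13, 13 and 12 Ecad- cells and 16, 30 and 23 Ecad+ cells. G2/M genes stood at -0.43, -0.87 and -1.58 from the lowest to the highest band, and G1/S genes at -0.70, -0.44 and -0.92. Epithelial genes were at -0.75 and -0.71 in the lower bands and at 0.02 in the highest, where Krt7 was still at -1.48 and Krt18 at 0.04. Ddit3 had a ratio of 2.83, 2.19 and 5.22 in the bands, and Nupr1 of 0.71, 0.55 and 3.58. The bands differ in library sets as well as in share, and the differences between them were not tested.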

How the data were processed

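Single cells were profiled on the Fluidigm C1 with SMARTer and Nextera XT, per the labels' protocols, a chemistry without molecular identifiers or strand marks, so reads of overlapping antisense genes are mixed. Per the submitters' processing notes, FastQC 0.11.5, kallisto and the build mm10 were used. The transcript index, the summing to genes and any cell filter were not given in the sources used here. As a table, the authors deposited log2 values of 28987 genes in 202 libraries. They were read as log2(TPM + 1), because library sums on the linear scale lay from 933711 to 987134. The authors' columns of fold changes and p-values, which treat cells as replicates, were not used. Read depth is unknown from TPM, which leaves counting error unknown, and a 0 is a listed 0, not proof of absence.

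Groups came from the sample labels. The share was the mt- sum over the column's TPM sum, and kept cells were rescaled to a common total without mt- rows. Library pairs with a Pearson correlation over 0.97 were averaged for pooled values and kept as single libraries for values within sets. The level was the mean TPM over cells, with a pseudocount of 1. The files give no symbol for 795 rows, and 92 symbols stand on several rows, of which the highest was used. Of the identifiers 27458 matched GENCODE M21, which is on GRCm38 (mm10) and gave the gene coordinates. Promoters came from the RefSeq table on GRCm38.p6.

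The naming rule took 12 genes whatever their values, up to 3 members of each of the 32 lists with the largest absolute ratio, and 10 genes each way with the largest minimum absolute ratio over the sets, among those with a mean of at least 20 TPM and above 0 in at least 25% of kept cells. Genes called in a list, Asns, Psph, Chac1, Pdia3, Map1lc3b, Lamp1, Krt8, Krt18, Epcam, Zeb1 and other list members outside this rule were named after their values were seen. Members and lists were chosen with earlier results of these data known. No test was made, since each fraction is 1 sample. The calculation was tested on simulated data. Python 3.11.15, numpy 2.4.6, pandas 2.3.3 and scipy 1.17.1 were used. Alternatives were other share windows, 1-to-1 matching of cells, a share without mt-Atp8, mt- rows kept, rescaling without ribosomal protein genes, centring on the all-gene median, every library kept apart, trimmed and log means, pseudocounts of 0.1 and 10, no floor and a floor of 50 TPM, each library set left out, equal weights for sets, and a range of genes per cell.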

Additional observations from a re-analysis of the deposited data

How the results depend on the processing

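A list median is called moved here when it shifted by more than its SD over the 3 library sets, and a count when it changed by over 1.5 times. Of 200 checks on the main results under all alternatives, 164 stayed within this spread, 35 moved and 1 changed sign. The SD over sets was 0.96 for the integrated stress response and 0.81 for G2/M. For these 2 lists, staying within the spread is therefore a weak check.

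The counts of higher and lower genes were 42 and 1471 with the mean of log2 values, 67 and 104 with a pseudocount of 10, 355 and 516 with no floor, and 53 and 67 with a floor of 50 TPM. They ran from 300 to 450 higher and 311 to 582 lower when 1 library set was left out, and the highest counts, 450 and 582, came without set 1. Fewer or more genes were tested with the floors, and fewer sets had to agree in sign with a set left out. The cause was not tested otherwise.

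The epithelial median was -0.19 with cells matched 1 to 1 on share, -0.21 with sets weighted equally, -0.49 with a trimmed mean, -0.52 with the mean of log2 values, -0.56 among cells with 8575 to 10465 genes above 0 and -0.87 with a floor of 50 TPM. Leaving out 1 set gave -0.59 to -0.40. The G1/S median had a small spread over sets, so many settings passed it: -0.57 with a pseudocount of 10, -0.61 with a floor of 50 TPM, -0.63 with Ecad+ sets weighted as Ecad- sets, an alternative chosen after seeing the data, -0.66 with equal sets, -0.68 with either other window or no floor, -0.75 with the mean of log2 values or a pseudocount of 0.1, and -0.76 without mt-Atp8. Leaving out 1 set gave -0.92 to -0.53. The G2/M median was -0.15 among cells with 8575 to 10465 genes above 0. The respiratory chain median was 0.38 with the mean of log2 values. The autophagy and lysosome median was 0.28 to 0.54 with 1 set left out. The class I median was -0.0014 with no floor, 0.081 in that gene range, and 0.018 to 0.49 with 1 set left out. Among single genes, Bcl2l11 was at -0.042 in it. The integrated stress response median stayed between 0.73 and 1.28, and the endoplasmic reticulum median between 0.06 and 0.36, under every alternative run.

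No paired analysis was possible because the numbers shared by the titles only name single cells, and no test was made. Ratios in set 3 rest on 6 Ecad- libraries, sets are uneven between the fractions, and without read depth a gene listed at 0 cannot be told from one not sampled.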
